A study of Mus musculus with 6 samples.

Results

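The genes described here are the LIM-only (LMO) factors and the partners of the LMO2 transcription complex, *Lmo1*, *Lmo2*, *Lmo3*, *Lmo4*, *Ldb1*, *Ldb2*, *Tal1*, *Lyl1*, *Gata2* and *Tcf3*. They were taken by gene symbol, 10 of the 55487 genes in the count table. The group was chosen by the counts of *Lmo2*, which had been seen to be higher after knockdown of *Snhg18*, and the question was whether its partners moved with it. The rise of *Lmo2* is therefore described without a test. RNA was sequenced from mouse pulmonary artery smooth muscle cells (mPASMCs), the contractile cells of the wall of the lung arteries, obtained from a supplier and used at passages 3 to 5. Cells were transfected, with a lipid reagent, with a small interfering RNA against the long noncoding RNA *Snhg18* (si-Snhg18, 3 libraries) or with its control siRNA (si-NC, 3 libraries). No other treatment, oxygen level or time after transfection is given for these libraries, and it is not stated whether libraries of a group came from separate cultures, so every p-value measures only the spread between these libraries.

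LMO proteins consist of a pair of LIM zinc fingers and do not bind DNA themselves. In the LMO2 complex, LMO2 holds together a basic helix-loop-helix (bHLH) dimer of TAL1 or LYL1 with an E protein such as TCF3, a GATA factor, and the adaptor LDB1, which dimerizes and can bring distant DNA elements together. The complex is best known from blood stem cells, red cell precursors and endothelium, and *LMO2* and *TAL1* are oncogenes of T-cell leukaemia.

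The 4 LMO genes are related, so how far their sequences differ bears on whether reads can be given to one of them. The lines that follow give the 60-base coding stretch of *Lmo2*, within 1 exon, that was most like any other LMO gene, with the best matching stretch of each of the others, all read from the GRCm38 transcripts. Capitals mark bases that differ from *Lmo2*.
Lmo2: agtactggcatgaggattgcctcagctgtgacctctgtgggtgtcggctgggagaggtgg
Lmo1: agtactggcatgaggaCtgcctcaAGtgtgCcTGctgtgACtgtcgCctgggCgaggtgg
Lmo3: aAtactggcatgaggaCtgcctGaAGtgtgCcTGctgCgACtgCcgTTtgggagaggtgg
Lmo4: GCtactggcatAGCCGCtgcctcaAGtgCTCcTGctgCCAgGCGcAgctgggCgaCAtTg
The *Lmo2* stretch lies at chr2:103976106-103976165 on the plus strand, in exon 2 of 3 of its longest coding transcript. The others lie on the minus strand, *Lmo1* at chr7:109143511-109143570, *Lmo3* at chr6:138416470-138416529 and *Lmo4* at chr3:144201868-144201927, each in exon 2. Even here *Lmo1* differed from *Lmo2* at 10 bases, *Lmo3* at 14 and *Lmo4* at 26, and the longest identical run was 16 bases, with *Lmo1*. None of the 2209 stretches of 31 bases in the *Lmo2* transcripts occurred in a transcript of any other annotated gene, and the same held for *Lmo1*, *Lmo4*, *Ldb2*, *Tal1*, *Lyl1*, *Gata2* and *Tcf3*. *Ldb1* shared 3.2% of its stretches, nearly all with *Pprc1*, which overlaps it on the opposite strand over 177 exonic bases and had 11865 reads in all. Whether strand was used in counting is not given in the sources used here. The only gene annotated over *Lmo2*, *4931422A03Rik* on the opposite strand, had 0 reads in all libraries.

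The genes are scattered over the genome. *Lmo2* (ENSMUSG00000032698) spans chr2:103957986-103981878 on the plus strand, *Lmo4* chr3:144188530-144205220, *Ldb1* chr19:46031570-46045214 and *Tcf3* chr10:80409514-80433647 on the minus strand, and *Gata2* chr6:88193891-88207032 on the plus strand. Of the rarely read members, *Tal1* lies at chr4:115056426-115071755 and *Lyl1* at chr8:84701449-84704940 on the plus strand, and *Lmo1* at chr7:109138572-109175207, *Lmo3* at chr6:138362918-138581968 and *Ldb2* at chr5:44472132-44799680 on the minus strand. All 10 are annotated as protein coding.

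The libraries held 18097718 to 25988746 counted reads, and the smallest was si-Snhg18 3. *Snhg18* was measured at 23.5, 22.4 and 22.2 CPM (reads per library size after TMM normalization) in si-NC and at 10.6, 11.2 and 9.97 in si-Snhg18, which went with the labels. The smooth muscle markers summed to 1762 to 1909 CPM in si-NC and 1210 to 1862 in si-Snhg18. Of these 8 markers edgeR called 1 as lower, *Tagln*, where it called 3.71% of all genes as lower. DESeq2 called 3 as lower, *Tagln*, *Cnn1* and *Des*, where it called 7.24% of all genes as lower. The fit with the replicate block described below called 4 as lower, where it called 13.6% of all genes as lower. Of the cells in which the LMO2 complex is best known, endothelial markers summed to 14.5 to 16.8 CPM in si-NC and 15.5 to 18.4 in si-Snhg18, with *Cldn5* at 0. Of these 11 markers 7 were tested and none was called by edgeR without the block, with 1 at an unadjusted p under 0.05, or by DESeq2, which gave no adjusted p for 4 of them. Of 10 erythroid markers, 6 had no read in any library, among them all of the listed globins and *Alas2*, and the sums were 0.49 to 1.57 and 0.192 to 3.64 CPM. Of 6 mast cell markers, *Cpa3*, *Fcer1a* and *Mcpt4* had no read, and the sums were 0.0432 to 0.169 and 0.119 to 0.231 CPM. Leukocyte markers summed to 111 to 154 and 69.3 to 109 CPM, nearly all of it from *Cd53* and *Cd14*, with *Cd3e*, *Cd3g* and *Adgre1* at 0. Of these 11 markers 3 were tested, and edgeR without the block and DESeq2 called only *Cd53*, as lower. The fit with the block called *Cd53* as lower and *Cd14* as higher, where it called 27.2% of all genes. Mean *Cd14* went from 24.5 to 36.9 CPM, and its groups overlapped. Fibroblast markers summed to 2444 to 3282 and 1431 to 2518 CPM. Of these 6 markers edgeR without the block and DESeq2 called 0, and the fit with the block called 3 as lower. Neural markers summed to 13 to 32 and 5.3 to 27.8 CPM, mostly from *Tubb3*. Of the 3 tested the fit with the block called 1 as lower, *Tubb3*. The fit without the block called 0, with 2 at an unadjusted p under 0.05, in opposite directions. Mean *Snap25* went from 0.24 to 0.819 CPM and *Elavl4* from 0.545 to 0.281. Each passed the filter only through the group where it was higher, so neither is support for a change. *Syp*, not tested, went from 0.0688 to 0.748 CPM. The part of these shifts in the results was not tested.

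*Lmo2*, the bridging factor of the complex, was read 6, 7 and 8 times in the si-NC libraries and 75, 100 and 107 times in the si-Snhg18 libraries. At the depth of each library these counts were 0.259, 0.286 and 0.339 CPM against 2.97, 3.84 and 5.86 CPM. Every si-Snhg18 library lay far above every si-NC library, and the highest value came from the shallowest library. The group means were 0.295 ± 0.0407 and 4.23 ± 1.48 CPM (SD, n = 3), a log2 fold change of 3.81. *Lmo2* was among the 14531 genes that passed the filter on low counts through its si-Snhg18 libraries alone, and *Lmo1* passed it through its si-NC libraries, with 1 si-Snhg18 library over the limit. With any 1 library left out the log2 fold change of *Lmo2* was 3.51 to 4.01, and with all libraries thinned to the smallest total it was 4.02. These refits reuse the counts by which *Lmo2* was chosen, so they only describe the rise and are no support for it. From bulk RNA, more cells that express *Lmo2* and more *Lmo2* RNA per cell cannot be told apart.

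Per length of transcript, *Lmo2* went from the lowest of the members that passed the filter to a place above *Lmo1*. Its mean was 0.193 ± 0.0266 CPM per kb in si-NC and 2.76 ± 0.971 in si-Snhg18 (SD, n = 3). In si-NC the order by mean level was *Ldb1* (32.6 ± 1.44 CPM per kb), *Tcf3* (30.1 ± 1.73), *Lmo4* (30.1 ± 0.84), *Gata2* (10.4 ± 1.33), *Lmo1* (0.877 ± 0.196) and *Lmo2*, above *Lyl1* (0.0362) and *Ldb2* (0.0275), with *Lmo3* and *Tal1* at 0 reads. *Ldb1* overlapped *Tcf3*, *Tcf3* overlapped *Lmo4*, and *Lyl1* overlapped *Ldb2*, while the other neighbours down to *Lyl1* were apart. In si-Snhg18 the order was *Ldb1* (38.7 ± 1.23), *Tcf3* (30.5 ± 5.32), *Lmo4* (25.9 ± 1.94), *Gata2* (14.8 ± 3.5), *Lmo2* and *Lmo1* (0.381 ± 0.256), followed by *Ldb2* (0.141), *Lyl1* (0.0137) and *Tal1* (0.00313), with *Lmo3* at 0. *Lmo2* stood above *Lmo1* in every si-Snhg18 library and below it in every si-NC library.

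**Figure D1:**
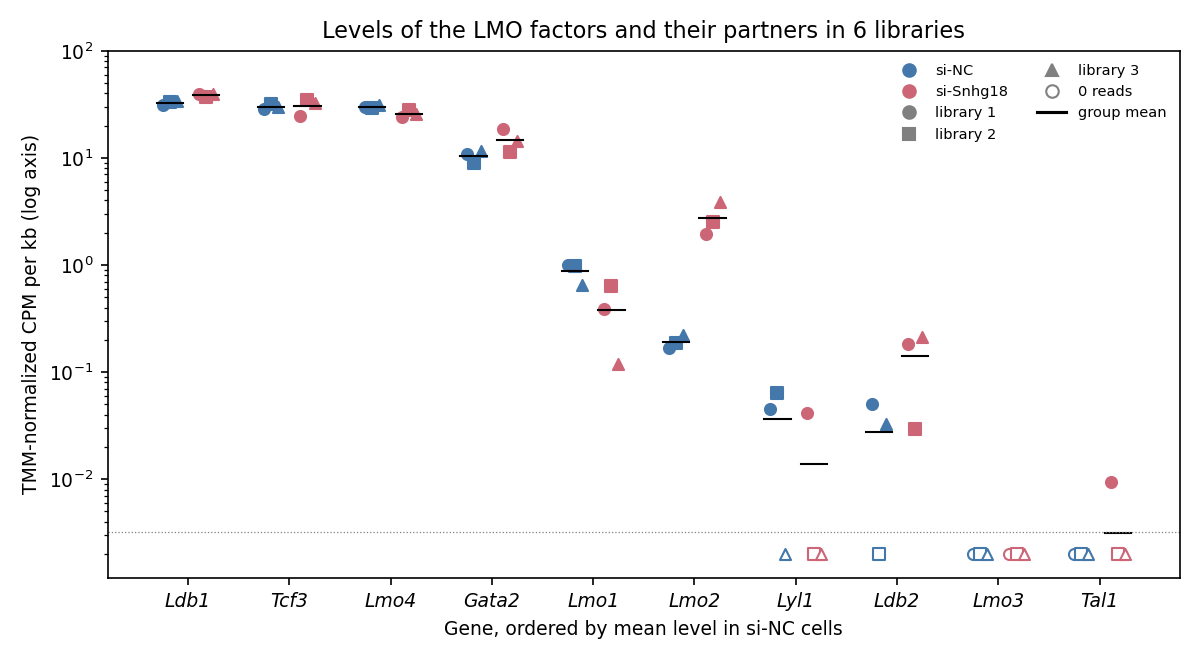
Level of each gene in each of the 6 libraries, as TMM-normalized CPM per kb of exon length on a log axis, with si-NC in blue and si-Snhg18 in red, the library number by marker shape, group means as black bars and libraries with 0 reads as open markers under the dotted line. *Lmo2* moved from a mean of 0.193 to 2.76 CPM per kb, while *Ldb1*, *Tcf3*, *Lmo4* and *Gata2* stayed between 8.95 and 39.7 in every library.

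The other LMO factors did not rise with *Lmo2*. *Lmo4*, the LMO factor found most widely in epithelial, neural and mesenchymal cells, was measured at 50.2, 48.8 and 51.6 CPM in si-NC and 40.2, 46.6 and 43.1 CPM in si-Snhg18. The si-Snhg18 values were all lower, by -0.21 on the log2 scale (95% interval -0.41 to -0.016), but did not pass the test (adjusted p = 0.174, edgeR's quasi-likelihood test with Benjamini-Hochberg adjustment over all 14531 genes). *Lmo1*, best known from the nervous system, had 21, 22 and 14 reads in si-NC and 9, 15 and 2 in si-Snhg18, or 0.907, 0.898 and 0.593 against 0.356, 0.577 and 0.11 CPM. The groups did not overlap, but si-Snhg18 2 lay close under the lowest si-NC library, and the log2 fold change of -1.14 had a wide interval of -2.43 to 0.15 (adjusted p = 0.25 by edgeR). *Lmo3* had 0 reads in all 6 libraries, where 3 reads would be 0.115 to 0.164 CPM, so it was not detectable at this depth.

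Among the LMO genes, *Lmo2* made up 0.542%, 0.615% and 0.698% of the summed CPM per kb in si-NC and 7.35%, 8.09% and 12.9% in si-Snhg18. *Lmo4* made up 96.1% to 97.3% of it in si-NC and 86.7% to 91.2% in si-Snhg18. The sum itself was 30.4 to 31.8 CPM per kb in si-NC and 26.4 to 31.1 in si-Snhg18, so *Lmo4* RNA remained the bulk of the family in every library.

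*Ldb1*, the adaptor that binds LIM domains and dimerizes, was measured at 97, 103 and 106 CPM in si-NC and 124, 117 and 123 CPM in si-Snhg18. All si-Snhg18 libraries lay above all si-NC libraries, and the difference was small. Its log2 fold change was 0.25 ± 0.0648 (SE), with an adjusted p of 0.0711 by edgeR, 0.0226 with the replicate block described below and 0.0249 by DESeq2. Without si-Snhg18 2 its adjusted p by edgeR was 0.0363. The related adaptor *Ldb2* had 3, 0 and 2 reads in si-NC and 12, 2 and 10 in si-Snhg18. The summed counts, 5 against 24, gave a depth-corrected ratio of 4.92 with an exact counting interval of 1.84 to 16.5, which covers counting error only, and the groups overlapped. Set against its adaptor per length, *Lmo2* was at 0.547, 0.566 and 0.657 per 100 of *Ldb1* in si-NC and at 4.89, 6.73 and 9.78 in si-Snhg18, so *Ldb1* RNA exceeded *Lmo2* RNA in every library.

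*Gata2*, the GATA factor of blood stem cells and endothelium, was measured at 34.1, 28.1 and 36.1 CPM in si-NC and 57.8, 35.9 and 45.1 CPM in si-Snhg18. The groups overlapped, since si-Snhg18 2 lay just under the highest si-NC library, while each si-Snhg18 library was above the si-NC library of the same number. The log2 fold change was 0.50 ± 0.189 (SE) with an adjusted p of 0.167 by edgeR and 0.0992 by DESeq2. With the replicate block the log2 fold change was 0.48 with an adjusted p of 0.0141 by edgeR, and without si-Snhg18 2 it was 0.65 with an adjusted p of 0.0284 by edgeR.

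*Tcf3*, which encodes the E proteins E12 and E47, was measured at 84.5, 94.5 and 87.7 CPM in si-NC and 72.4, 102 and 95.4 CPM in si-Snhg18. The si-Snhg18 libraries lay on both sides of the si-NC libraries. The log2 fold change was 0.019 (95% interval -0.30 to 0.34, adjusted p = 0.948 by edgeR), and its sign turned when si-NC 1, si-Snhg18 2 or si-Snhg18 3 was left out, with values of -0.019, -0.088 and -0.024.

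The bHLH factors that pair with TCF3 in the blood complex were hardly read. *Tal1* had 0 reads in each si-NC library and 1, 0 and 0 in si-Snhg18. *Lyl1* had 2, 3 and 0 reads in si-NC and 2, 0 and 0 in si-Snhg18, a ratio of 0.41 with an exact counting interval of 0.039 to 2.5. Both stayed at or under the floor of 3 reads in every library, and 54.9% of all genes in the table had no read at all, so neither factor was detectable above that floor at this depth.

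Of the 10 genes, 6 passed the filter, and of the 5 besides *Lmo2* none was called by edgeR at an adjusted p under 0.05, with 3 at an unadjusted p under 0.05. Over all tested genes 7.36% were called, 3.65% as higher and 3.71% as lower. DESeq2, which gave no adjusted p for *Lmo1*, called 1 of the 5, *Ldb1* as higher, where it called 14.6% of all genes, 7.38% as higher and 7.24% as lower. The 2 groups share repeat numbers 1 to 3, so the fit was also made with the number as a block. This compares libraries of the same number, which are not stated to be pairs. That fit called 2 of the 5, *Ldb1* and *Gata2*, both higher, where it called 27.2% of all genes, 13.6% as higher and 13.6% as lower. Without si-Snhg18 2 the fit without the block likewise called *Ldb1* and *Gata2*, where it called 22.1% of all genes, 10.4% as higher and 11.7% as lower, and it called none of them when any other library was left out, with 1 or 2 at an unadjusted p under 0.05. Between the groups, *Ldb1* did not overlap as higher, where 15.4% of all genes did so, and *Lmo1* and *Lmo4* did not overlap as lower, where 15.5% did. *Lmo1* passed the filter mostly through its si-NC libraries, so its lower place is no support for a fall. The log2 fold change of 3.81 for *Lmo2* stood beside values between -0.21 and 0.50 for *Lmo4*, *Ldb1*, *Gata2* and *Tcf3*. That of *Lmo1* was -1.14, with an interval of -2.43 to 0.15. *Ldb2*, which was not tested, had 5 reads in si-NC and 24 in si-Snhg18, and its groups overlapped. The count of partners called depended on the block and on 1 library.

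**Figure D2:**
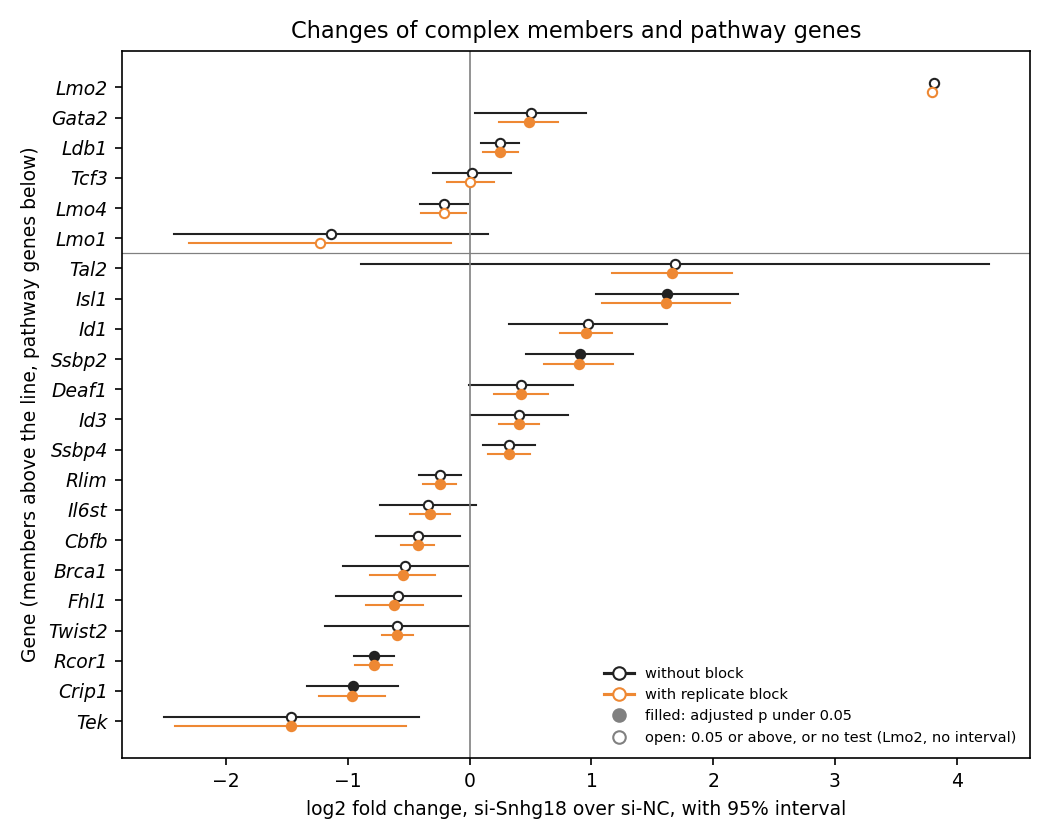
Log2 fold change of si-Snhg18 over si-NC without the replicate block in black and with it in orange, with 95% intervals for all but *Lmo2*, for the 6 complex genes that passed the filter and, under the line, the pathway genes called in either fit, where filled points have an adjusted p under 0.05. *Lmo2*, drawn without a test or interval, stood at 3.81, and *Ldb1* and *Gata2* were filled in the fit with the block only.

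The wider machinery of the complex was described with 9 lists of 91 genes, of which 51 passed the filter, while none of the remaining 40 exceeded 15 reads in a library. Of the 51, edgeR called 2 as higher, *Ssbp2* and *Isl1*, and 2 as lower, *Rcor1* and *Crip1*, and the median log2 fold change was 0.012 against 0.0072 over all tested genes. With the block 7 were called higher and 9 lower, where the share over all genes was 27.2%, and without it 7.36%. Without si-NC 1, si-NC 3 or si-Snhg18 3 none of the pathway genes, and none of all genes, was called by edgeR, with 8 to 10 pathway genes at an unadjusted p under 0.05. Without si-NC 2 or si-Snhg18 1 only 1 was called, *Rcor1*. Without si-Snhg18 2 there were 11, where that fit called 22.1% of all genes.

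Of the proteins that control LDB1, *Ssbp2*, which binds LDB1 and protects it from degradation, was measured at 6.95, 8.37 and 6.86 CPM in si-NC and 12.8, 17 and 11.7 CPM in si-Snhg18. The groups were well apart, and it rose by 0.90 ± 0.183 (SE) on the log2 scale (adjusted p = 0.0377 by edgeR, 0.00273 with the block). Its relative *Ssbp4* was higher by 0.33 and *Rlim*, the ubiquitin ligase that marks LDB1 for degradation, lower by -0.25, both called with the block (adjusted p = 0.0179 and 0.0194 by edgeR) and not without it (0.0814 and 0.096). *Ssbp3* did not pass in either fit (log2 fold change 0.14, adjusted p = 0.433 by edgeR). Of these 4 genes edgeR called 1, DESeq2 2, and edgeR with the block 3, where 7.36%, 14.6% and 27.2% of all genes were called.

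*Isl1*, a LIM-homeodomain factor that binds LDB1 through its own LIM domains, was measured at 2.37, 3.76 and 3.39 CPM in si-NC and 10.2, 7.65 and 11.5 CPM in si-Snhg18. Every si-Snhg18 library was above every si-NC library, and the log2 fold change was 1.62 ± 0.244 (SE, adjusted p = 0.0185 by edgeR). Of the 12 LIM-homeodomain genes only *Isl1*, *Lhx6* and *Lhx8* passed the filter. *Isl1* was the only 1 of these 3 called by edgeR, by DESeq2 and by edgeR with the block. Over all genes these fits called 7.36%, 14.6% and 27.2%, and with 3 genes such counts say little about the list. *Lhx6* and *Lhx8* had log2 fold changes of -0.019 and 0.045 and were not called in either fit.

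E proteins and their inhibitors all passed the filter, and none of the 6 was called by edgeR without the block, with 2 at an unadjusted p under 0.05, while DESeq2 called *Id1*. The fit with the block called 2 of the 6, *Id1* and *Id3*, both higher. Over all genes these fits called 7.36%, 14.6% and 27.2%, and with 6 genes such counts say little about the list. *Id1*, which binds E proteins and keeps them from DNA, was measured at 23.5, 14.7 and 20.1 CPM in si-NC and 47.2, 25.5 and 42 CPM in si-Snhg18. Every si-Snhg18 library was above every si-NC library, and library 2 was the lowest of both groups. Its log2 fold change was 0.97, with an adjusted p of 0.0843 by edgeR and 0.000895 with the block. *Id3*, another inhibitor, was higher by 0.41 (adjusted p = 0.19 by edgeR and 0.00666 with the block). The E protein genes *Tcf4* and *Tcf12*, both above 99 CPM in every library, had log2 fold changes of 0.069 and -0.19 and were called in neither fit.

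Of 15 tissue bHLH factors, 4 passed the filter. Without the block edgeR called none, with 1 at an unadjusted p under 0.05. DESeq2 called none either, but gave no adjusted p for 1 of the 4. The fit with the block called 1 as higher and 1 as lower. Over all genes these fits called 7.36%, 14.6% and 27.2%, and with 4 genes such counts say little about the list. *Tal2*, the closest relative of *Tal1* on the list, was measured at 6.13, 0.613 and 7.97 CPM in si-NC and 27.1, 1.85 and 18.4 CPM in si-Snhg18. In both groups library 2 was far below the others, and each si-Snhg18 library was above its si-NC counterpart, so the log2 fold change of 1.68 had an adjusted p of 0.379 by edgeR without the block and 0.0021 with it. *Twist2*, a mesenchymal bHLH factor, fell by 0.59 on the log2 scale in the fit with the block (adjusted p = 0.000828 by edgeR), and was not called without it (0.195). Of the 7 other GATA and FOG factors 5 passed the filter. None was called by edgeR in either fit or by DESeq2, with 0 at an unadjusted p under 0.05 without the block. At the shares over all genes given above, 0 of 5 says little about the list. Among the 5, *Gata6* was at 64 ± 2.73 CPM in si-NC and 58.9 ± 4.11 in si-Snhg18 (SD, n = 3).

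**Figure D3:**
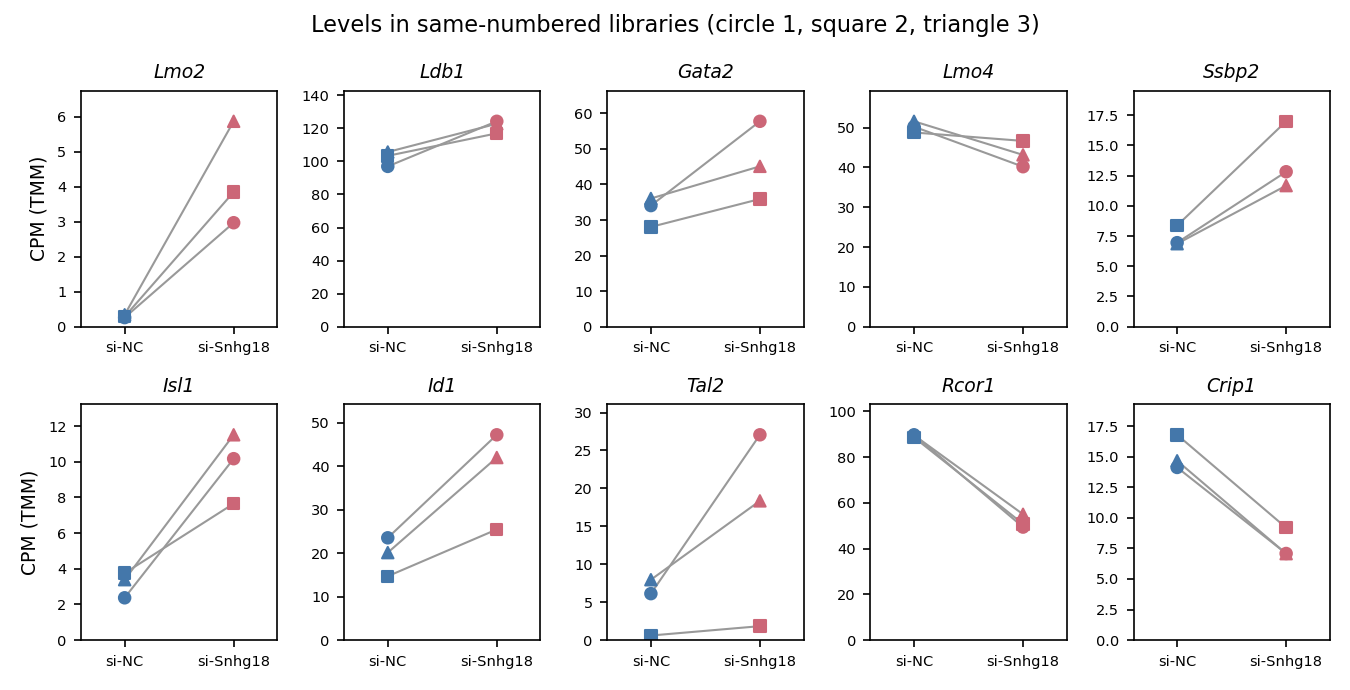
CPM of 10 genes in si-NC and si-Snhg18, with lines joining libraries of the same number (circle 1, square 2, triangle 3), each panel with its own axis from 0. *Lmo2*, *Ssbp2*, *Isl1*, *Rcor1* and *Crip1* have groups that are apart, while for *Gata2* and *Tal2* the groups overlap and every line goes up.

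Of 13 corepressors and cofactors, 10 passed the filter and edgeR without the block called 1, with 2 at an unadjusted p under 0.05. With the block 2 were called. Over all genes these fits called 7.36% and 27.2%. *Rcor1*, the CoREST scaffold that joins the demethylase KDM1A to histone deacetylases, was measured at 89.8, 88.7 and 89.6 CPM in si-NC and 49.4, 50.8 and 55 CPM in si-Snhg18. The libraries of each group lay close together, and it fell by 0.79 ± 0.0687 (SE) on the log2 scale (adjusted p = 0.00727 by edgeR). Its partners *Kdm1a*, *Hdac1* and *Hdac2* were not called in either fit, with log2 fold changes of 0.18, 0.19 and -0.037. *Runx1*, which works with the complex in blood cells, had a log2 fold change of 0.23 and was not called, while *Cbfb*, the subunit that stabilizes RUNX1, was called with the block only, at -0.43 (adjusted p = 0.00272 by edgeR).

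Of the 4 tested LMO4 partners none was called by edgeR without the block or by DESeq2, with 1 at an unadjusted p under 0.05. Of these, *Deaf1* (0.42), *Brca1* (-0.55) and *Il6st* (-0.32) were called with the block only, 1 as higher and 2 as lower. That fit called 27.2% of all genes. Of the 8 tested cytoplasmic LIM-only proteins, *Fhl1* (-0.62) was called with the block only. Each of these values is a log2 fold change of the fit with the block. Of the same 8 genes edgeR without the block and DESeq2 each called 1, *Crip1*, and edgeR with the block called 2, both lower. Over all genes these fits called 7.36%, 14.6% and 27.2%, and with 8 genes such counts say little about the list. *Crip1*, a small cysteine-rich LIM protein, was measured at 14.1, 16.8 and 14.7 CPM in si-NC and 7.08, 9.19 and 7.07 CPM in si-Snhg18. All si-Snhg18 libraries lay below all si-NC libraries, and it fell by 0.96 ± 0.155 (SE) on the log2 scale (adjusted p = 0.0213 by edgeR). *Csrp1*, a LIM protein of smooth muscle, stayed between 297 and 348 CPM in all libraries, with a log2 fold change of -0.063.

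Genes known as direct targets of the complex in blood and endothelium were mostly too low to test. Of 21 listed, 8 passed the filter, and edgeR without the block called none, with 1 at an unadjusted p under 0.05, where 7.36% of all genes were called. DESeq2 called none either, but gave no adjusted p for 3 of the 8, and with 8 genes such counts say little about the targets. Their median log2 fold change was -0.013, against 0.0072 over all tested genes. *Tek*, the angiopoietin receptor of endothelium, was called with the block as lower, at -1.47 (adjusted p = 0.0341 by edgeR), from 0.907 to 0.32 CPM, but it passed the filter through its si-NC libraries alone, so this call is no support for a fall. *Cdh5*, which encodes VE-cadherin, was at 9.64 ± 0.22 CPM in si-NC and 9.99 ± 0.989 in si-Snhg18 (SD, n = 3), a log2 fold change of 0.05. *Meis1* and *Angpt2* had log2 fold changes of 0.13 and -0.12 and were called in neither fit.

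Genes around *Lmo2* on chromosome 2 were looked at next. Within 500 kb on either side, 30 genes are in the table and 8 passed the filter, of which edgeR called 0 as higher and 2 as lower, where 3.65% and 3.71% of all genes were called, too few genes to set the neighbourhood apart. The nearest of them, *Fbxo3*, starts 45.8 kb beyond the end of *Lmo2* and was at 40.7 ± 2.07 CPM in si-NC and 40.1 ± 4.97 in si-Snhg18, a log2 fold change of -0.023 (adjusted p = 0.922 by edgeR). *Caprin1*, at -160.3 kb from *Lmo2*, fell by 0.29 (adjusted p = 0.0478 by edgeR), and *Hipk3*, at 444.6 kb, fell by 0.46 (adjusted p = 0.0137 by edgeR). With the block, *Abtb2* (0.33) and *Nat10* (0.31) were called as higher as well, so that 4 of 8 were called where 27.2% of all genes were, and DESeq2 with the block called neither (adjusted p = 0.11 and 0.0721). Without si-NC 1, si-NC 2, si-NC 3 or si-Snhg18 3 none of the 8 was called by edgeR, with 2 or 3 at an unadjusted p under 0.05, without si-Snhg18 1 only *Hipk3* was, and *Caprin1* was also lost with RLE factors, without the filter and in the likelihood ratio test.

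**Figure D4:**
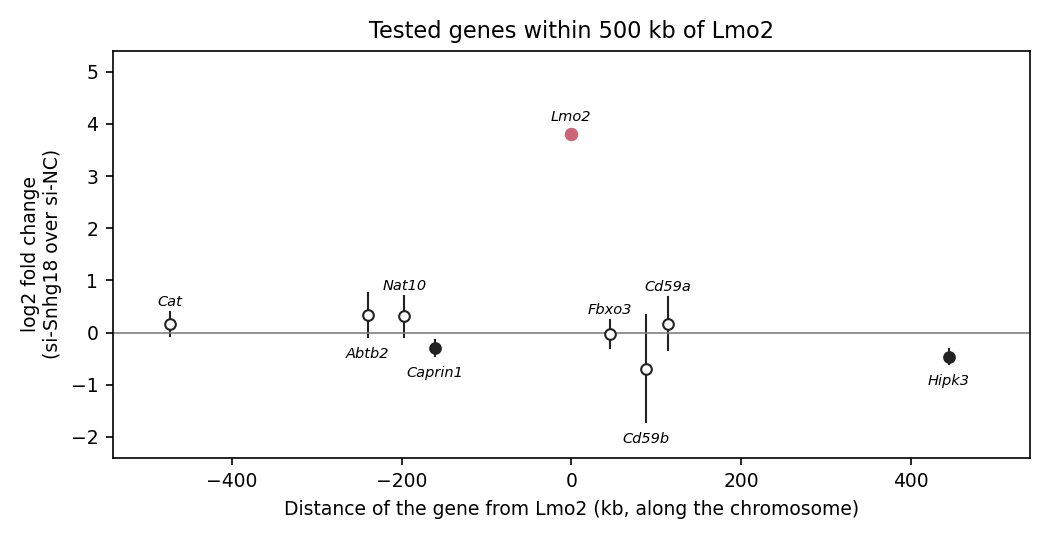
Log2 fold change with its 95% interval for the 8 tested genes within 500 kb of *Lmo2*, against their distance from it in kb, with filled points for an adjusted p under 0.05 and *Lmo2* in red without an interval. *Lmo2* stood at 3.81, and the neighbours lay between -0.69 and 0.34.

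Genes were also ranked by how near their pattern was to that of *Lmo2*, a measure set mostly by the size of the difference between the groups. Among the 12959 genes whose mean log2 CPM was 0 or more, likeness was measured as the root mean square difference from *Lmo2*, over 6 libraries, of log2 CPM centred on the si-NC mean, and the closest were *Penk* (0.509), *Col5a3* (0.512), *Disp2* (0.766), *Stac* (0.791) and *Rgs7* (0.917). *Penk*, which encodes the precursor of the enkephalins, was measured at 2.55, 2.45 and 2.37 CPM in si-NC and 23, 17.3 and 19.3 CPM in si-Snhg18. Within si-Snhg18 its highest library was number 1, where that of *Lmo2* was number 3. *Col5a3*, a chain of type V collagen, went from 4.51 ± 2.25 to 43.4 ± 1.56 CPM (SD, n = 3). Of the complex genes, *Gata2* (2.14) was 1139th and *Ldb1* (2.28) 2607th in the same order, while *Tcf3* (2.45) and *Lmo4* (2.61) came 5971st and 9248th.

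The 250 bases before annotated starts were searched, on both strands, for 3 E-boxes, the sites of bHLH dimers, and 2 GATA motifs, since the complex binds such sites together. The first E-box read CAGATG, another read CAGCTG, and the last read CAGGTG. One GATA motif read AGATAA, and the other read TGATAA. RefSeq windows of GRCm38.p6 were at hand for 8 of the 10 genes, which leaves out *Lmo2* and *Ldb2*. An E-box stood in 38.1% and a GATA motif in 16.6% of all 32851 windows. Among the complex genes, the window of *Ldb1* at chr19:46037071-46037320, before an internal start, held AGATAA 2 times, 1 window of *Tal1* held it 1 time, and the window of *Lyl1* held CAGGTG 1 time. No window of *Gata2*, *Tcf3*, *Lmo1*, *Lmo3* or *Lmo4* held any of the 5 motifs, which says only that these letters are absent from these windows, and in no window did both kinds of motif stand together.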

How the data were processed

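The authors deposited raw read counts per gene for 6 libraries made with the TruSeq Stranded mRNA kit, with exon lengths and positions on GRCm38.p6, the build in the file header. HISAT2 and mm10 are named in the submitters' processing notes. The counting program is not given in the sources used here, so reads of overlapping genes may be divided in ways the counts do not show. Columns were tied to samples by group and repeat number.

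The counts were fitted with edgeR 4.0.16 in R 4.3.3 (filterByExpr with a minimum count of 10, TMM, glmQLFTest, Benjamini-Hochberg adjustment over 14531 genes, calls at an adjusted p under 0.05). CPM are TMM-normalized, and log2 CPM carry a prior count of 2. Levels between genes are CPM per kb of the deposited exon length. Counting intervals are exact at 95%, and they and the floor of 3 reads cover counting error only. With 3 against 3 libraries an exact two-sided permutation test cannot give a p under 0.1. The fits were tested on simulated data.

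Same-numbered libraries deviated together from their group means (correlations 0.41, 0.742 and 0.359, over 14531 genes). Deviations within a group of 3 libraries cancel out, so these values are not independent, and unlike numbers were not compared. The correlations therefore cannot show that equal numbers mark pairs. The pairing comes from the repeat numbers in the labels, which are not stated to mark shared cultures, so the fit with the replicate block is given beside the one without it. Alternatives were DESeq2 1.42.0, RLE factors, no TMM factors, other filters, the likelihood ratio test, limma-voom (limma 3.58.1), thinning, TPM and leaving out each library. DESeq2 with the block was added after seeing the data.

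The members and lists were chosen with earlier results of these data known. Named genes were the 10 members, *Snhg18*, listed genes and genes within 500 kb of *Lmo2* with an adjusted p under 0.05 in either fit, up to 4 of the highest level per list, the 5 genes with the pattern most like that of *Lmo2*, and markers where a value touches a result.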

Additional observations from a re-analysis of the deposited data

How the results depend on the processing

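The number of genes called moved with the test: 1069 without the block, 3954 with it, 2124 with DESeq2 and 3166 with DESeq2 and the block. Leaving out 1 library gave 0 to 3282, with none called without si-NC 1, si-NC 3 or si-Snhg18 3. Of the 5 tested partners of *Lmo2*, edgeR called none without the block, with 3 at an unadjusted p under 0.05, against 1 with DESeq2, 2 with the block, 2 with DESeq2 and the block, and 0 to 2 with 1 library left out. Of the 51 pathway genes 4 were called, against 16 with the block, 14 with DESeq2 and the block, and 0 to 11 with 1 library left out. Near *Lmo2* 2 genes were called, against 4 with the block, 1 with RLE factors, 1 without the filter, 1 in the likelihood ratio test, 2 with DESeq2 and the block and 0 to 2 with 1 library left out. The log2 fold change of *Tcf3* turned negative without si-NC 1 (-0.019), si-Snhg18 2 (-0.088) and si-Snhg18 3 (-0.024), within a range of -0.088 to 0.15 over all libraries left out in turn, and none of the other members, called pathway genes or called neighbours refitted turned.

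Of 410 fold changes of single tested genes refitted, without those of *Lmo2*, 334 kept their direction and side of the threshold, 40 passed it newly, 33 lost it and 3 turned. The cause of these shifts was not tested. The order of levels was kept at 20 of 20 places without TMM factors and with TPM, and at 16 to 20 with 1 library left out. Depth limits *Lmo3*, *Tal1*, *Lyl1* and *Ldb2*, and 3 libraries per group limit every interval.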
